A study of Mus musculus with 6 samples.

Results

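The genes described here encode the enzymes and receptors that make, break down or respond to the second messengers cAMP, cGMP, diacylglycerol and inositol trisphosphate (IP3). They were chosen by name, as the protein-coding rows of the authors' deposited comparison table whose symbol belongs to 1 of 8 families: adenylyl cyclases, phosphodiesterases, subunits of protein kinase A (PKA), phospholipases C, IP3 receptors, IP3 3-kinases, protein kinase C (PKC) isoforms and diacylglycerol kinases. This rule finds 79 of the 18058 protein-coding genes in that table. It uses no measured value, but the genes were chosen with earlier results of these data known. RNA came from hippocampus, with 1 mouse per library. All 6 mice were C57BL/6J males that had received an adeno-associated virus (AAV) in the CA1 field of both hippocampi at 8 weeks of age. In 3 mice the virus carried TAF15 (TAF15 OE), and its label names the CaMKIIα promoter, which is active in excitatory neurons. The other 3 mice received a control AAV (Control), and 31 days are given for all 6. Only cells reached by the virus carry the transgene, while RNA was taken from the tissue as a whole, and the sequence of the TAF15 insert is not given in the sources used here. TAF15 is an RNA-binding protein of the FET family. Memory and Npas4 transcription are named in the title, and the comparison asks which transcripts differed between mice given TAF15 and their controls. Taf15 itself was counted 908, 958 and 795 times in Control 1, 2 and 3 and 3897, 3661 and 4477 times in TAF15 OE 1, 2 and 3, a 4.27-fold rise (log2 fold change 2.095, SE 0.0861, edgeR adjusted p = 4.97e-07), in the direction of the labels.

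Adenylyl cyclases make cAMP under the control of G proteins and, for some members, of calcium bound to calmodulin. cAMP releases the catalytic subunits of PKA from its regulatory subunits, and phosphodiesterases end the signal. Phospholipase C cuts a membrane phosphoinositide into IP3, which opens receptors on the endoplasmic reticulum to release calcium, and diacylglycerol, which activates most PKC isoforms until diacylglycerol kinases phosphorylate it. In hippocampal neurons both routes act on synaptic strength and on transcription, the cAMP route through the factor CREB.

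Library totals ran from 14965464 to 16067000 counts. Of 52550 genes in the count table, 16758 passed the filter on low counts and were tested. Of the variance, 46.3% lay on a first principal component that parts the groups. Another 21.7% lay on a second one, on which Control 1 and TAF15 OE 1 stand away from the remaining 4. They also had the lowest summed level of 12 choroid plexus and ependyma markers, 365.6 CPM (a count divided by its library's scaled total) in Control 1 and 2656 in TAF15 OE 1, against 6723 to 7860 in the other 4. Pan-neuronal markers were present in every library, with summed levels of 9348 to 9862 CPM in Control and 8142 to 8144 CPM in TAF15 OE.

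Of the 79 genes, 75 passed the filter, and 26 of them were called, that is, differed between the groups at an edgeR adjusted p below 0.05. The share of all tested genes called was 15.3%. Among the 75, 12 rose and 14 fell in TAF15 OE (a positive log2 fold change is higher in TAF15 OE), and the shares of all tested genes that rose or fell were 9.32% and 5.95%. The groups did not overlap in CPM for 38 of the 75, against 34.6% of all tested genes. The calls came from 7 of the 8 families. PKC isoforms and diacylglycerol kinases had most of their calls downward, phospholipases C and IP3 receptors most of theirs upward, and PKA subunits had none. The median log2 fold change was -0.02 over the 75 and 0.03 over all tested genes, and both change sign with the scaling of the libraries: DESeq2's size factors gave -0.05 and -0.0036, total counts alone 0.02 and 0.07. Of the 26 calls, 11 held under each of 13 alternatives, including each of the 6 libraries left out in turn, and among these 11 were Dgkz, Itpka, Plcd4, Plce1, Prkce, Adcy1, Itpkb, Pde8a, Prkcb and Plcb3. Without Control 1 and TAF15 OE 1, the libraries set apart by the second component, 23 of the 75 were called, of which 20 belong to the 26. The 4 genes that failed the filter, Pde6a, Pde6b, Pde6c and Pde6h, encode subunits of the photoreceptor phosphodiesterase and had from 0 to 8 counts in any library.

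**Figure D1:**
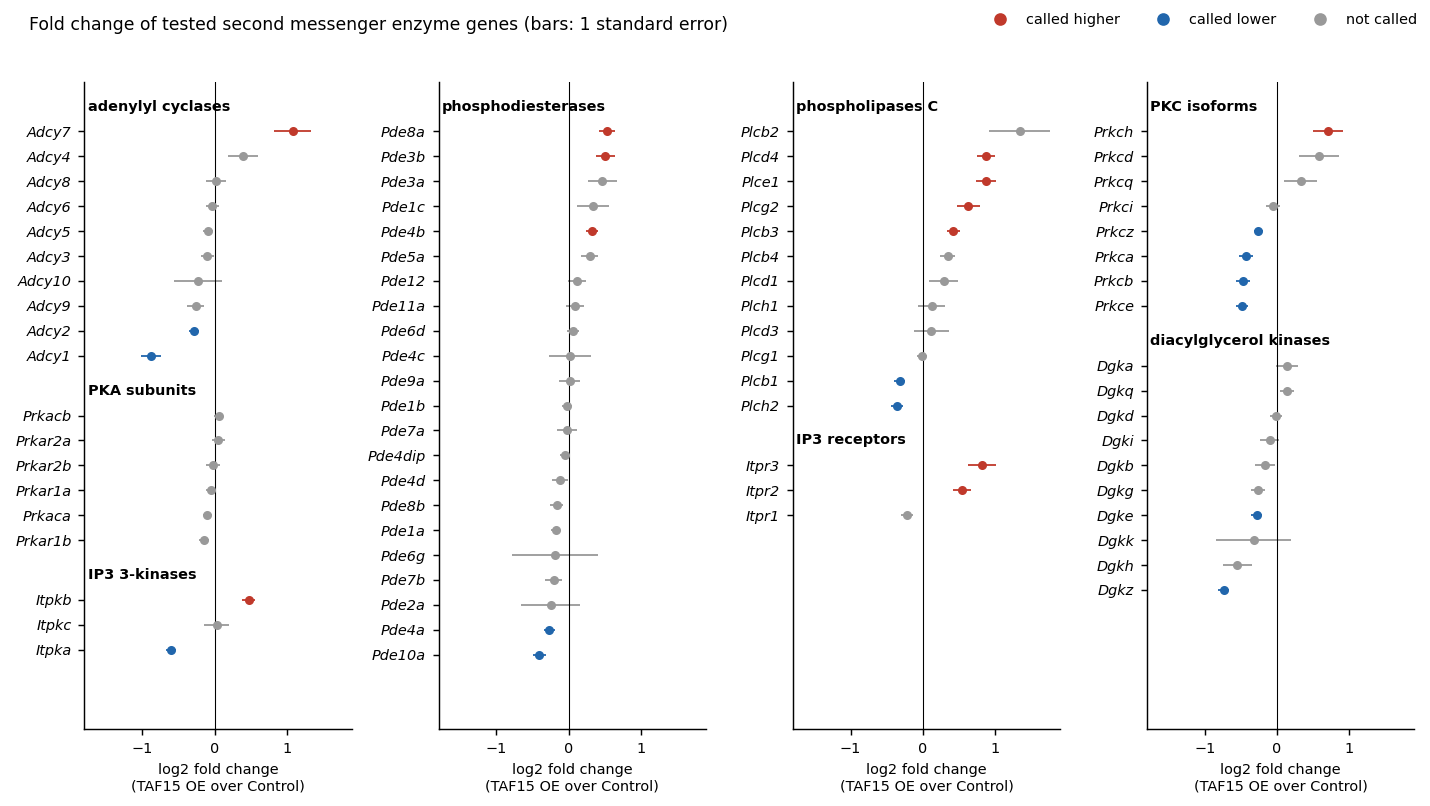
Log2 fold change of TAF15 OE over Control for the tested genes reported individually, by family; points are edgeR estimates, bars are 1 standard error, and colours mark genes called higher, called lower or not called. All 6 PKA subunits lie near 0, the called PKC isoforms other than Prkch lie to the left, and the called phospholipases C other than Plcb1 and Plch2 lie to the right.

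RefSeq promoters (build GRCm38.p6, 250 bases before to 50 after each start) were found for 66 of the 79 genes, 118 promoters in all. Those with no entry included Adcy6, Adcy8, Itpr1, Pde3a, Pde3b, Pde6a, Pde6c, Pde6g, Pde7a, Pde9a, Prkce and Prkch. Since CREB is the transcription factor that PKA phosphorylates, the windows were searched on both strands for the full cAMP response element TGACGTCA and for its shorter core TGACG, which the full element contains. The full element was in 3 of the 118 promoters (2.54%), against 588 of 32851 RefSeq promoters (1.79%). This counts promoters, and overlapping windows of Prkar1a share the same element. The core was in 24 of the 118 (20.3%), against 20.8% of all promoters. It was in 21.1% of the 19 promoters of genes that fell and in 18.8% of the 16 of genes that rose. The letters TCGTG, also searched on both strands, the core to which NPAS4 and related factors bind, were in 15.3% of the 118 and 16% of all promoters, in 10.5% of those of genes that fell and in 12.5% of those of genes that rose. These shares lie near those of all promoters, and a match is a description of letters, not of binding. Base composition differed more. The median promoter of genes that fell had 68.3% G and C and 23 CpG pairs, that of genes that rose 55% and 6, and that of the 15194 promoters of all tested genes 60.3% and 19, which are descriptions with no test.

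The following windows, 250 bases before to 10 after the start and read 5′ to 3′ along the gene, show this range. They belong to the 5 genes whose calls held under every alternative and whose RefSeq start lies within 100 bases of the start in the authors' table, and to Prkcz, the called gene with the full element. Adcy1 and Itpka fell, and Itpkb, Plcb3 and Plcd4 rose. Capitals mark TGACG or its reverse complement CGTCA, so a window without capitals holds neither.
Adcy1: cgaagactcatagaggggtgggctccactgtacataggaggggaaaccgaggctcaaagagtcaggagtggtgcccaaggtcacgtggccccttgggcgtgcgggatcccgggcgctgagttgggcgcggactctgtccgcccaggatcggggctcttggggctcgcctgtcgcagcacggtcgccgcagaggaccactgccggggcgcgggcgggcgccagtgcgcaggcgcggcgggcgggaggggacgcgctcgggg
Itpka: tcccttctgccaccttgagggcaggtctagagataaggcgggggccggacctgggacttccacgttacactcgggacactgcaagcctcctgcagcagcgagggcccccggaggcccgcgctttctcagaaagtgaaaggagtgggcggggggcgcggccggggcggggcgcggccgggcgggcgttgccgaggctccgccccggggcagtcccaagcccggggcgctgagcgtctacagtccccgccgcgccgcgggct
Itpkb: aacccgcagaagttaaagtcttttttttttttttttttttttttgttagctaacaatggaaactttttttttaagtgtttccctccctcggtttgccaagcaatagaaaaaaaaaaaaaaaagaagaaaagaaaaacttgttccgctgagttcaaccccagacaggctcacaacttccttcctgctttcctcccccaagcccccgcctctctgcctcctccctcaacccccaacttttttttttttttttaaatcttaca
Plcb3: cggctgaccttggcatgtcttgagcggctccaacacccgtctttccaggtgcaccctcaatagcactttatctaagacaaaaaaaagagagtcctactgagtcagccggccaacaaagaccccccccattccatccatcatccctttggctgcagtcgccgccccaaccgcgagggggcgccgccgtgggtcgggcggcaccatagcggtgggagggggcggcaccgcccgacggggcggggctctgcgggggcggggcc
Plcd4: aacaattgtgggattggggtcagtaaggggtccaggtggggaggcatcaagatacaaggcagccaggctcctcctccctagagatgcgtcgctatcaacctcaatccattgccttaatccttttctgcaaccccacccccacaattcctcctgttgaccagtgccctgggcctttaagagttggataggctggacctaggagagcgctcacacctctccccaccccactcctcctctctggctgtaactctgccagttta
Prkcz: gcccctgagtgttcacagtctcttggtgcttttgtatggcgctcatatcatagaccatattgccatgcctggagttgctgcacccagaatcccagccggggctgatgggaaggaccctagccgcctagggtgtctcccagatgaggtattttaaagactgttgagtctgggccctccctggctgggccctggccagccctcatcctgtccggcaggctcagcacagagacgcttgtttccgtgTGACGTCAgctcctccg
The G and C content of these windows is 71.9% in Adcy1 (chr11:7063183-7063442, + strand) and 73.5% in Itpka (chr2:119742087-119742346, + strand), each with 29 CpG pairs. It is 37.7% with 4 CpG pairs in Itpkb (chr1:180330226-180330485, + strand), whose window holds runs of A and T. Plcd4 (chr1:74542639-74542898, + strand) has 55% and 3 pairs, and Plcb3 (chr19:6969805-6970064, - strand) has 65.8% and 21 pairs. The Prkcz window (chr4:155345780-155346039, - strand) precedes a start inside the gene, 15572 bases from the start in the authors' table, and its element begins 7 bases before that start. Prkcz is known to make the brain form PKMζ from an internal promoter, and counts per gene do not part the forms. The other promoters with the full element are overlapping windows of Prkar1a, which was not called, and they hold the same element.

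Among the 10 adenylyl cyclases, 2 fell and 1 rose (median log2 fold change -0.10), 30% called against 15.3% of all tested genes. Gene positions are those of the authors' table, and the build named in the submitters' processing notes is GRCm38. Adcy1 (ENSMUSG00000020431, chr11:7063489-7178506), a neuronal cyclase stimulated by calcium and calmodulin, had 1535, 1036 and 1245 CPM in Control 1, 2 and 3 and 705, 620.4 and 744 CPM in TAF15 OE 1, 2 and 3. It was 1.84-fold lower in TAF15 OE (log2 fold change -0.88, SE 0.139, edgeR adjusted p = 0.00548), the largest fall of the 75 genes in the edgeR fit. Each TAF15 OE library lay below each Control library, although the Control libraries spread widely (1272 ± 251 against 690 ± 63.3 CPM, SD, n = 3). In FPKM, the deposited level scaled by gene length and library total, Adcy1 was also the most abundant cyclase: it held 48.7% ± 3.60 of the summed FPKM of the family in Control and 36.5% ± 1.88 in TAF15 OE (SD, n = 3). The summed FPKM of the 10 cyclases was 203 ± 21.5 in Control and 153 ± 6.99 in TAF15 OE, a description with no test. The other calcium-stimulated cyclases gave log2 fold changes of -0.10 for Adcy3 (edgeR adjusted p = 0.488), which shares 22.1% of its exon bases with Cenpo on the other strand, and 0.02 for Adcy8 (edgeR adjusted p = 0.948). In bulk tissue, fewer cells of a type and less RNA per cell cannot be told apart.

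Adcy2 and Adcy7, both stimulated by the G protein beta-gamma dimer, moved in opposite directions. Adcy2 had 164, 140.1 and 145 CPM in Control 1, 2 and 3 and 124, 125 and 119.5 CPM in TAF15 OE 1, 2 and 3 and fell (log2 fold change -0.29, SE 0.0751, edgeR adjusted p = 0.026). Its groups did not overlap, but the call ended without Control 1 (edgeR adjusted p = 0.0983), Control 3 (0.0538), TAF15 OE 2 (0.0745) or TAF15 OE 3 (0.0697). Adcy7, a cyclase of low level known from immune cells, had 9.71, 9.48 and 10.5 CPM in Control 1, 2 and 3 and 30, 14.4 and 18.3 CPM in TAF15 OE 1, 2 and 3. It rose 2.11-fold (log2 fold change 1.08, SE 0.259, edgeR adjusted p = 0.0304), with TAF15 OE 1 the highest. Without TAF15 OE 1 the log2 fold change was 0.70, and the call ended without Control 1 (edgeR adjusted p = 0.115), Control 2 (0.111), Control 3 (0.0823) or TAF15 OE 3 (0.0628) and with limma-voom (0.0655). The summed level of 15 microglia markers was also highest in TAF15 OE 1, at 2431 CPM against 1486 and 1542 in TAF15 OE 2 and 3 and 743 to 785.5 in Control. Their part in the Adcy7 result was not tested. The calcium-inhibited Adcy5 and Adcy6 gave log2 fold changes of -0.09 and -0.03, Adcy4 0.40, Adcy9 -0.26 and the soluble cyclase Adcy10 -0.23, none called. Adcy9 was called lower without the filter (edgeR adjusted p = 0.00608) or without TAF15 OE 1 (0.0402). Adjusted p-values without the filter were far smaller even for well-counted genes and are not comparable with those of the fit with it.

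Of the 26 phosphodiesterases 22 were tested, and 3 rose and 2 fell (median log2 fold change -0.0038, or 0.04 with total counts alone). The share called was 22.7%, against 15.3% of all tested genes. The cAMP-specific Pde8a (ENSMUSG00000025584, chr7:81213596-81334533), which has a high affinity for cAMP, had 19.1, 22.2 and 23.6 CPM in Control 1, 2 and 3 and 29.1, 31.9 and 32.8 CPM in TAF15 OE 1, 2 and 3. It rose (log2 fold change 0.53, SE 0.106, edgeR adjusted p = 0.00807), with every TAF15 OE library above every Control library. The rolipram-sensitive Pde4a and Pde4b, also cAMP-specific, moved apart. Pde4b had 78.6, 68.8 and 76.2 CPM in Control 1, 2 and 3 and 99.5, 95 and 84.1 CPM in TAF15 OE 1, 2 and 3 and rose (log2 fold change 0.32, SE 0.0833, edgeR adjusted p = 0.026). Pde4a had 129, 116 and 117 CPM in Control 1, 2 and 3 and 97.2, 93.7 and 109.8 CPM in TAF15 OE 1, 2 and 3 and fell (log2 fold change -0.27, SE 0.0793, edgeR adjusted p = 0.0428). Both calls rest on small gaps between the groups: that of Pde4b ended without Control 2 (edgeR adjusted p = 0.0974), Control 3 (0.067), TAF15 OE 1 (0.0926) or TAF15 OE 2 (0.123). That of Pde4a ended with any library left out except TAF15 OE 3 (edgeR adjusted p = 0.0595 to 0.145) and with total counts alone (0.083).

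Pde10a, which hydrolyses both cyclic nucleotides and is known for its level in striatal neurons, had 102, 81.8 and 101 CPM in Control 1, 2 and 3 and 74.3, 67 and 73 CPM in TAF15 OE 1, 2 and 3 and fell (log2 fold change -0.41, SE 0.0908, edgeR adjusted p = 0.0132). The call ended without Control 3 (edgeR adjusted p = 0.0567) or TAF15 OE 2 (0.0593). Of 11 striatal markers, 1 rose and 1 fell, 18.2% called against 15.3% of all tested genes. Their summed level was 346 to 379 CPM in Control and 333 to 398 CPM in TAF15 OE, and their part in the Pde10a result was not tested. Pde3b, inhibited by cGMP, had 16.4, 15.8 and 17.9 CPM in Control 1, 2 and 3 and 28.2, 22.4 and 20.5 CPM in TAF15 OE 1, 2 and 3 and rose (log2 fold change 0.50, SE 0.131, edgeR adjusted p = 0.0252). TAF15 OE 1 was its highest library, and the log2 fold change was 0.33 without it. The call ended without Control 1 (edgeR adjusted p = 0.0744), Control 2 (0.0965), Control 3 (0.0523), TAF15 OE 1 (0.0848) or TAF15 OE 2 (0.0684).

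The calcium-stimulated Pde1b was the most abundant phosphodiesterase per length, with mean FPKM of 40.1 in Control and 40.8 in TAF15 OE. Its log2 fold change was -0.02 (95% interval -0.18 to 0.13, edgeR adjusted p = 0.872), and it became 0.02 with total counts alone. Pde1a followed with 32.8 and 29.9 FPKM, a log2 fold change of -0.18 and an edgeR adjusted p of 0.0898, and of the alternatives only DESeq2 called it (adjusted p = 0.0392). The 4 tested genes grouped by name with the cGMP-specific enzymes, Pde5a, Pde9a, Pde6d and Pde6g, gave 0 calls by edgeR, DESeq2 or limma-voom, with 1 at an unadjusted p below 0.05 by edgeR. Pde6g had only 3 to 13 counts in any library. The other tested members, Pde1c, Pde3a, Pde4c, Pde4d, Pde7a, Pde7b, Pde8b and Pde11a, had log2 fold changes from -0.21 for Pde7b to 0.47 for Pde3a and were not called. The summed FPKM of the family was 171.4 ± 2.55 in Control and 171.8 ± 1.62 in TAF15 OE (SD, n = 3). Pde12 and Pde4dip carry the family name but encode a mitochondrial nuclease and an anchoring protein, and neither was called. Pde2a, a cGMP-stimulated enzyme known for its level in hippocampus, had only 7 to 17 counts. It shares 64.3% of its exon bases with the same-strand gene Gm45837 in GENCODE M21, so its level here is uncertain.

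No PKA subunit gene was called. The edgeR, DESeq2 and limma-voom tests each gave 0 calls of 6, with 1 gene at an unadjusted p below 0.05 in each. In the edgeR fit it was Prkar1b, a regulatory subunit of neurons, which had 534, 562 and 512 CPM in Control 1, 2 and 3 and 475, 492 and 482 CPM in TAF15 OE 1, 2 and 3 (log2 fold change -0.15, 95% interval -0.29 to -0.0069, edgeR adjusted p = 0.151). Prkar1a, the most abundant of the 79 genes per length at 174 FPKM, had 768, 773 and 759 CPM in Control 1, 2 and 3 and 723, 747 and 753 CPM in TAF15 OE 1, 2 and 3 (log2 fold change -0.05, 95% interval -0.19 to 0.09). The catalytic subunits had intervals of -0.24 to 0.03 for Prkaca and -0.08 to 0.19 for Prkacb, and the regulatory subunits -0.15 to 0.25 for Prkar2a and -0.23 to 0.18 for Prkar2b. These intervals leave out a fall as large as that of Adcy1 for each of the 6. The direction of the family's median depends on the scaling (-0.04, or 0.01 with total counts alone). Its summed FPKM was 432 ± 13.7 in Control and 423 ± 13.8 in TAF15 OE (SD, n = 3), the highest of the 8 families in TAF15 OE.

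Around the cyclases, 4 of 13 G protein alpha subunits rose and 2 fell (median log2 fold change -0.07), 46.2% called against 15.3% of all tested genes. With DESeq2's size factors 2 rose and 2 fell, and with total counts alone 4 rose and 1 fell. Gna13, of the class that controls the actin cytoskeleton, rose by 0.64 on the log2 scale (edgeR adjusted p = 5.02e-04), and the cyclase inhibitor Gnai2 rose by 0.42 (edgeR adjusted p = 0.00341). Gnas, which encodes the stimulatory subunit, had 79.3, 81 and 76.3 CPM in Control 1, 2 and 3 and 70.7, 65.3 and 57.4 CPM in TAF15 OE 1, 2 and 3 and fell (log2 fold change -0.29, edgeR adjusted p = 0.0373). This call ended with any library left out except TAF15 OE 1 (edgeR adjusted p = 0.0731 to 0.118) and with total counts alone (0.0623). Of 24 other cAMP effectors and anchors, 1 rose and 2 fell (median -0.09), 12.5% called against 15.3% of all tested genes. The cAMP-activated exchange factor Rapgef3 (EPAC1) rose by 0.57 (edgeR adjusted p = 0.00403). Ppp1r1a, a PKA substrate that inhibits protein phosphatase 1, fell (log2 fold change -0.34, edgeR adjusted p = 0.0118), as did Akap5, which anchors PKA and PKC at synapses (log2 fold change -0.35, edgeR adjusted p = 0.0170). The Akap5 call ended without Control 1 (edgeR adjusted p = 0.0613) or TAF15 OE 2 (0.0528), and without Control 1 and TAF15 OE 1 together (0.0557). The 6 tested guanylyl cyclase and cGMP kinase genes gave 0 calls by edgeR, DESeq2 or limma-voom and 0 at an unadjusted p below 0.05.

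Of the 12 phospholipases C, 4 rose and 2 fell (median log2 fold change 0.31), 50% called against 15.3% of all tested genes. Plcd4 (ENSMUSG00000026173, chr1:74542888-74567794), a delta isoform, had 14.3, 16.1 and 18.9 CPM in Control 1, 2 and 3 and 34.4, 28.1 and 27.8 CPM in TAF15 OE 1, 2 and 3. It rose 1.83-fold (log2 fold change 0.87, SE 0.129, edgeR adjusted p = 0.00188), and the lowest TAF15 OE library lay above the highest Control library by a wide margin. Of its exon bases, 29.8% are shared with Zfp142 on the other strand, and the strandedness of the counting is not given in the sources used here. Zfp142 itself had a log2 fold change of -0.12 (edgeR adjusted p = 0.45). Plce1 (ENSMUSG00000024998, chr19:38481109-38785030), an isoform regulated by Ras-family proteins, had 15.6, 20.6 and 24.3 CPM in Control 1, 2 and 3 and 36.6, 37.8 and 36.4 CPM in TAF15 OE 1, 2 and 3. It rose 1.83-fold as well (log2 fold change 0.87, SE 0.138, edgeR adjusted p = 0.00318), and its TAF15 OE libraries lay close together (20.2 ± 4.37 against 36.95 ± 0.750 CPM, SD, n = 3).

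Plcb3 (ENSMUSG00000024960, chr19:6953714-6969759), which receptors activate through Gq, had 26.1, 25.2 and 26.9 CPM in Control 1, 2 and 3 and 34.2, 33.5 and 36.8 CPM in TAF15 OE 1, 2 and 3 and rose (log2 fold change 0.42, SE 0.0877, edgeR adjusted p = 0.00991). Plcg2, an isoform known from immune cells and microglia, had 11.5, 10.6 and 9.33 CPM in Control 1, 2 and 3 and 20.1, 14.3 and 14.3 CPM in TAF15 OE 1, 2 and 3 and rose (log2 fold change 0.63, SE 0.16, edgeR adjusted p = 0.0229). TAF15 OE 1 was the highest library for Plcg2, as it was for the summed microglia markers, whose part was not tested. The Plcg2 call ended without Control 2 (edgeR adjusted p = 0.0724), Control 3 (0.0871) or TAF15 OE 1 (0.0714). Plcb2, named after its values were seen, had 4.75, 4.91 and 4.4 CPM in Control 1, 2 and 3 and 20.3, 7.23 and 8.19 CPM in TAF15 OE 1, 2 and 3. Its TAF15 OE libraries were all above Control but far apart (log2 fold change 1.34, SE 0.422, edgeR adjusted p = 0.0863), and it was called by DESeq2 (adjusted p = 9.89e-04) and by edgeR without the filter (0.00135), without TAF15 OE 1 (0.0306) or without TAF15 OE 2 (0.0487). The value without the filter is not comparable with that of the fit with it.

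The 2 phospholipases C that fell are the most abundant of the family per length. Plcb1, the main Gq-activated isoform of the hippocampus, had 214, 184 and 200.1 CPM in Control 1, 2 and 3 and 167, 150.1 and 162 CPM in TAF15 OE 1, 2 and 3 and fell (log2 fold change -0.32, SE 0.0756, edgeR adjusted p = 0.0166). Plch2, a neuronal eta isoform, had 174, 141 and 159 CPM in Control 1, 2 and 3 and 130, 124 and 116 CPM in TAF15 OE 1, 2 and 3 and fell (log2 fold change -0.36, SE 0.0846, edgeR adjusted p = 0.0171). The Plcb1 call ended without Control 1 (edgeR adjusted p = 0.0649), Control 3 (0.0546) or TAF15 OE 2 (0.0801). The Plch2 call ended without Control 1 (edgeR adjusted p = 0.0647), Control 3 (0.0574), TAF15 OE 2 (0.062) or TAF15 OE 3 (0.0546). Plch2 and Plcb1 held 26.9% ± 1.96 and 24.8% ± 1.09 of the family's summed FPKM in Control and 20.6% ± 0.909 and 19.4% ± 0.526 in TAF15 OE (SD, n = 3). The share of Plcd4 was 3.23% ± 0.456 and 5.78% ± 0.503. The summed FPKM itself was 71.1 ± 1.49 in Control and 74.9 ± 2.2 in TAF15 OE. Plcb4, Plcd1, Plcd3, Plch1 and Plcg1 gave log2 fold changes from -0.01 to 0.34 and were not called, although Plcb4 was called higher with total counts alone (edgeR adjusted p = 0.0389) or without Control 3 (0.0454).

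IP3 acts on 3 receptor genes, of which Itpr2 and Itpr3 rose. Itpr2, the receptor known from astrocytes, had 32.5, 26.1 and 30.4 CPM in Control 1, 2 and 3 and 50.5, 38.1 and 41.2 CPM in TAF15 OE 1, 2 and 3 and rose (log2 fold change 0.54, SE 0.121, edgeR adjusted p = 0.0133). The call ended without Control 2 (edgeR adjusted p = 0.0579). The summed level of 12 astrocyte markers was 4498 to 5678 CPM in Control and 8195 to 8901 CPM in TAF15 OE, and its part in the Itpr2 result was not tested. Itpr3, at low level, had 4.08, 5.97 and 5.2 CPM in Control 1, 2 and 3 and 10.2, 9.21 and 7.59 CPM in TAF15 OE 1, 2 and 3 and rose (log2 fold change 0.82, SE 0.192, edgeR adjusted p = 0.0161). This call ended without Control 1 (edgeR adjusted p = 0.0587), Control 3 (0.051) or TAF15 OE 2 (0.0654). Itpr1, the neuronal receptor, had 483, 406 and 477 CPM in Control 1, 2 and 3 and 376, 377 and 418 CPM in TAF15 OE 1, 2 and 3, with TAF15 OE 3 above Control 2 (log2 fold change -0.22, SE 0.0816, edgeR adjusted p = 0.0916). It was called without Control 2 (edgeR adjusted p = 0.0405), by DESeq2 (adjusted p = 0.0291) and without the filter (edgeR adjusted p = 0.0159, not comparable with that of the fit with it). Per length Itpr1 held 90.6% ± 0.405 of the receptors' summed FPKM in Control and 84.4% ± 2.29 in TAF15 OE, and Itpr2 held 7.31% ± 0.232 and 11.6% ± 1.76 (SD, n = 3).

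Of the 3 IP3 3-kinases, which convert IP3 into a tetrakisphosphate, 1 fell and 1 rose. Itpka (ENSMUSG00000027296, chr2:119742337-119751263), an enzyme of dendritic spines that also bundles actin, had 258, 239 and 231 CPM in Control 1, 2 and 3 and 151, 167 and 162 CPM in TAF15 OE 1, 2 and 3. It was 1.52-fold lower in TAF15 OE (log2 fold change -0.60, SE 0.0712, edgeR adjusted p = 6.34e-04), and the libraries within a group were close (243 ± 14.1 against 160 ± 8.04 CPM, SD, n = 3). Itpkb (ENSMUSG00000038855, chr1:180330485-180424802), which is expressed in many tissues, had 63.7, 69.4 and 82 CPM in Control 1, 2 and 3 and 105, 98.9 and 94.1 CPM in TAF15 OE 1, 2 and 3 and rose (log2 fold change 0.47, SE 0.0932, edgeR adjusted p = 0.00768). Itpkc had a log2 fold change of 0.03 (edgeR adjusted p = 0.938) and shares 24.1% of its exon bases with BC024978 on the other strand. Itpka held 94.2% ± 0.838 of the family's summed FPKM in Control and 89.0% ± 1.04 in TAF15 OE, and Itpkb 4.86% ± 0.852 and 9.63% ± 0.846 (SD, n = 3). The sum was 139 ± 4.90 and 100.2 ± 4.83 FPKM.

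**Figure D2:**
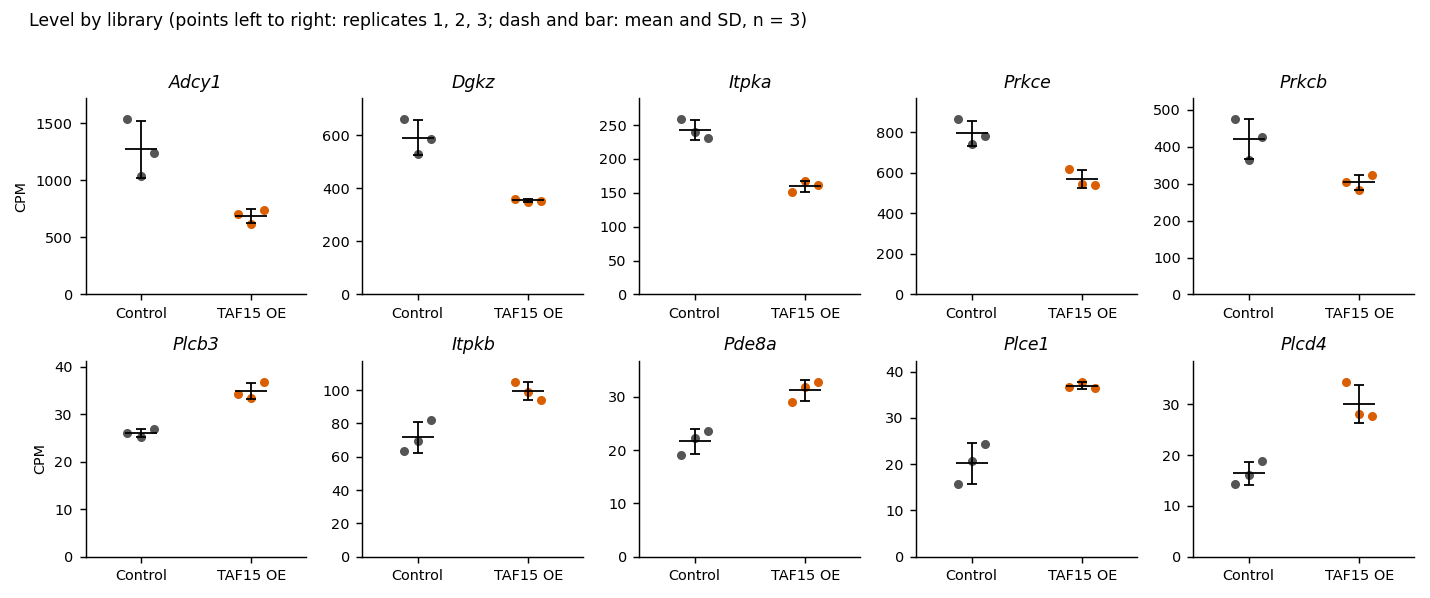
CPM in each library of 10 genes whose calls held under every alternative (each axis starts at 0); points are single mice, the dash is the group mean and the bar its SD, n = 3. The groups do not overlap in any panel: the 5 genes in the upper row are lower in TAF15 OE and the 5 in the lower row are higher.

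Of 20 other genes of calcium release and uptake, 10 fell and 2 rose (median log2 fold change -0.24), 60% called against 15.3% of all tested genes. The release channel Ryr1 fell by 0.96 on the log2 scale (edgeR adjusted p = 0.00219). Jph4, which joins the endoplasmic reticulum to the plasma membrane in neurons, fell by 0.49 (edgeR adjusted p = 0.00269), and the calcium pump Atp2a3 rose by 1.06 (edgeR adjusted p = 0.00279). Of 32 genes of phosphoinositide supply and inositol phosphate removal, 5 fell and the others were not called (median -0.14). The share called was 15.6%, against 15.3% of all tested genes called in either direction and 5.95% called lower. Pip5k1b, which makes the substrate of phospholipase C, fell by 0.50 (edgeR adjusted p = 0.00515).

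Of the PKC isoforms, Prkca, Prkcb, Prkce and Prkcz fell and Prkch rose. Prkca and Prkcb are conventional isoforms, which need calcium and diacylglycerol. Prkcb (ENSMUSG00000052889, chr7:122288751-122634402) had 474, 365 and 427 CPM in Control 1, 2 and 3 and 305, 283 and 324 CPM in TAF15 OE 1, 2 and 3 (log2 fold change -0.47, SE 0.0946, edgeR adjusted p = 0.0088). Prkca, expressed in many tissues, had 340.4, 294 and 318 CPM in Control 1, 2 and 3 and 274, 225 and 211 CPM in TAF15 OE 1, 2 and 3 (log2 fold change -0.43, SE 0.099, edgeR adjusted p = 0.0174). The groups did not overlap for either gene. The Prkca call ended without Control 1 (edgeR adjusted p = 0.0639), Control 3 (0.0575), TAF15 OE 2 (0.0829) or TAF15 OE 3 (0.0511), whereas that of Prkcb held with each library left out.

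The isoforms that need diacylglycerol but not calcium did not share a direction. Prkce (ENSMUSG00000045038, chr17:86167785-86657919), the most abundant of them, had 862, 739.6 and 781 CPM in Control 1, 2 and 3 and 619.6, 544 and 539.9 CPM in TAF15 OE 1, 2 and 3 and fell (log2 fold change -0.48, SE 0.0824, edgeR adjusted p = 0.00372). Prkch, a minor isoform here at 0.837 FPKM, had 4.48, 6.17 and 3.67 CPM in Control 1, 2 and 3 and 7.86, 8.48 and 7.04 CPM in TAF15 OE 1, 2 and 3 and rose (log2 fold change 0.71, SE 0.208, edgeR adjusted p = 0.0415). That call ended with any library left out except Control 2 (edgeR adjusted p = 0.0686 to 0.152) and with DESeq2 (adjusted p = 0.0508). Prkcd, named after its values were seen, had 27.8, 24.9 and 32.1 CPM in Control 1, 2 and 3 and 60.6, 32.7 and 33.4 CPM in TAF15 OE 1, 2 and 3 (log2 fold change 0.58, SE 0.273, edgeR adjusted p = 0.227). TAF15 OE 1 stood far above the other libraries, as it did for the summed microglia markers, whose part was not tested, and DESeq2 called the gene (adjusted p = 0.0382). Prkcq had a log2 fold change of 0.33 (edgeR adjusted p = 0.387).

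Of the atypical isoforms, which need neither, Prkcz had 196, 185 and 192 CPM in Control 1, 2 and 3 and 164, 158 and 157 CPM in TAF15 OE 1, 2 and 3 and fell (log2 fold change -0.26, SE 0.0631, edgeR adjusted p = 0.0197). The call ended without Control 1 (edgeR adjusted p = 0.0668), Control 3 (0.0603), TAF15 OE 2 (0.0797) or TAF15 OE 3 (0.0537). Prkci had a log2 fold change of -0.06 (95% interval -0.27 to 0.16).

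The 10 diacylglycerol kinases, which turn diacylglycerol into phosphatidic acid, had 2 calls, both downward (median log2 fold change -0.21). The share called was 20%, against 15.3% of all tested genes. Dgkz (ENSMUSG00000040479, chr2:91932824-91975864), the most abundant of them, had 660, 530.1 and 585 CPM in Control 1, 2 and 3 and 359.5, 350.2 and 354 CPM in TAF15 OE 1, 2 and 3. It was 1.67-fold lower in TAF15 OE (log2 fold change -0.74, SE 0.0816, edgeR adjusted p = 4.38e-04), the smallest adjusted p of the 75 genes, and the 3 TAF15 OE libraries lay within 354 ± 4.71 CPM (SD, n = 3). Dgke, which prefers diacylglycerol with arachidonic acid, had 103, 96.4 and 90 CPM in Control 1, 2 and 3 and 81.4, 79.4 and 77.4 CPM in TAF15 OE 1, 2 and 3 and fell (log2 fold change -0.28, SE 0.0722, edgeR adjusted p = 0.0231). The Dgke call ended without Control 1 (edgeR adjusted p = 0.0856), Control 2 (0.0593), TAF15 OE 2 (0.0752) or TAF15 OE 3 (0.0657). Dgkz held 47.9% ± 0.587 of the family's summed FPKM in Control and 38.5% ± 2.13 in TAF15 OE (SD, n = 3), and the sum was 193 ± 16.0 and 149 ± 8.03 FPKM. Dgkh had a log2 fold change of -0.55 with an edgeR adjusted p of 0.126, and Dgkg -0.26 with 0.102. Dgkh was called lower by DESeq2 (adjusted p = 0.0124) and by edgeR without the filter (8.89e-06), and Dgkg by edgeR without the filter (adjusted p = 0.00508) or without TAF15 OE 1 (0.00732). The 2 adjusted p-values without the filter are not comparable with those of the fit with it. The other 6 ranged from -0.32 for the sparsely counted Dgkk to 0.14 for Dgka.

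Of 24 other diacylglycerol effectors and lipases, 6 rose and 6 fell (median log2 fold change -0.04, or 0.0085 with total counts alone). The share called was 50%, against 15.3% of all tested genes. Chn1, a Rac inhibitor that binds diacylglycerol, fell by 0.60 on the log2 scale (edgeR adjusted p = 0.00163). The adducins, PKC substrates of the membrane skeleton, moved apart: Add2 fell by 0.54 (edgeR adjusted p = 0.00198) and Add3 rose by 0.68 (edgeR adjusted p = 2.57e-04).

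**Figure D3:**
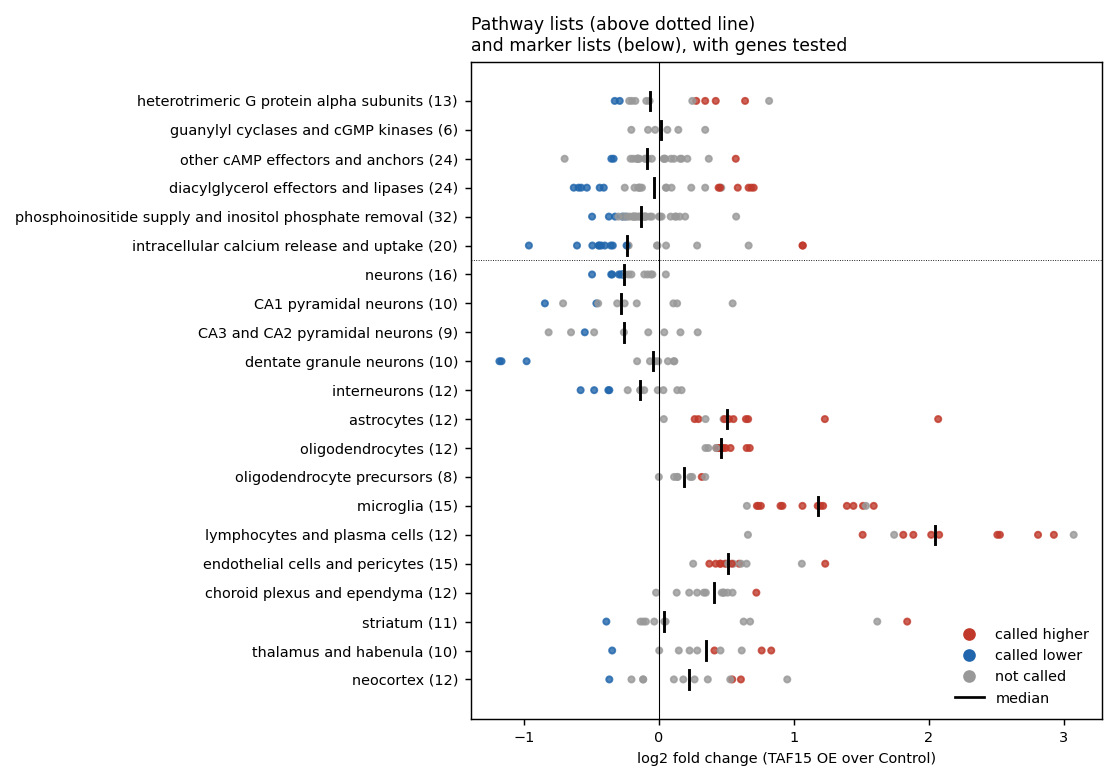
Log2 fold change of each tested gene (points) in the 6 pathway lists and 15 marker lists, with the number tested in brackets; black dashes are list medians and colours mark genes called higher, called lower or not called. Medians of the neuron, CA1, CA3 and CA2, dentate granule and interneuron lists lie below 0. Those of astrocytes, oligodendrocytes, microglia, lymphocytes and plasma cells, and endothelial cells lie above 0. Medians of the striatum, thalamus and habenula, and neocortex lists also lie above 0.

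The direction of the calls differed with the level of the genes. With a cut of 10 FPKM, chosen after the values were seen, 31 of the 75 genes were at or above the cut, of which 13 fell and the others were not called, 29 with a negative log2 fold change (median -0.22). Of the 44 below it, 12 rose and 1 fell, Pde10a at 6.56 FPKM (median 0.14). The same cut over all tested genes gave 794 lower and 363 higher of 5017 above it (median -0.09) and 203 lower and 1199 higher of 11741 below it (median 0.09). The 12 genes that rose had mean levels of 0.784 to 8.18 FPKM (median 2.79), and the 14 that fell had a median of 31.4 FPKM.

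**Figure D4:**
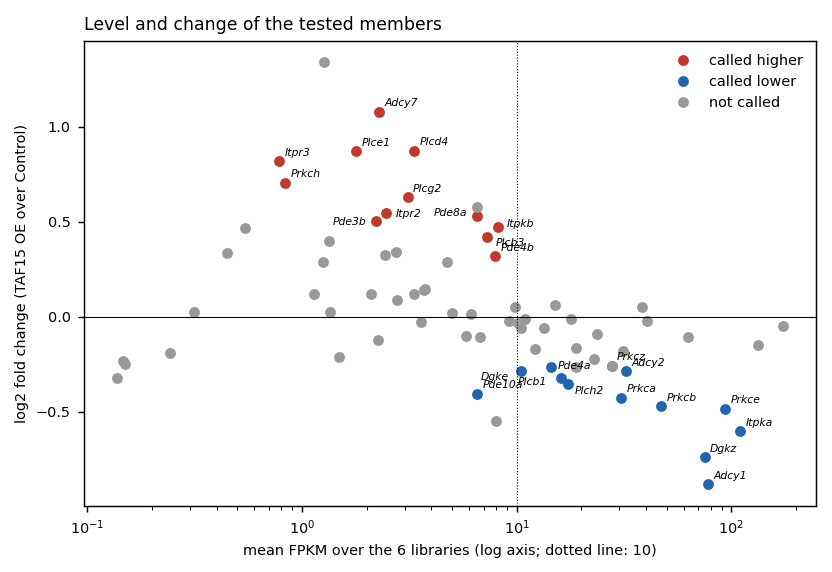
Mean FPKM over the 6 libraries (log axis) against the log2 fold change of TAF15 OE over Control for the tested genes reported individually; the dotted line marks 10 FPKM. Genes called higher lie left of the line and genes called lower lie right of it, apart from Pde10a at 6.56 FPKM.

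Markers of several cell types moved between the groups beside these genes. Of 16 neuron markers 8 fell (median log2 fold change -0.26). Of 10 CA1 pyramidal neuron markers 2 fell (median -0.28). Of the CA3 and CA2 markers 1 of 9 fell (median -0.26), of the dentate granule neuron markers 3 of 10 (median -0.05) and of the interneuron markers 4 of 12 (median -0.14). Astrocyte markers rose in 9 of 12 (median 0.50), and Gfap had the largest rise of the list (log2 fold change 2.07). Microglia markers rose in 13 of 15 (median 1.18) and oligodendrocyte markers in 9 of 12 (median 0.46). Markers of lymphocytes and plasma cells rose in 9 of 12 tested (median 2.05), with sums of 12.7 to 37.8 CPM in Control and 106.5 to 187 CPM in TAF15 OE, and endothelial cell and pericyte markers rose in 8 of 15 (median 0.51). Of all tested genes 15.3% were called. The shares called were lower among markers of CA3 and CA2 (11.1%) and of oligodendrocyte precursors (12.5%, 1 of 8 rose, median 0.18). The share was also lower for choroid plexus and ependyma markers (8.33%, 1 of 12 rose, median 0.41). Their summed level was 365.6 CPM in Control 1 and 6776 and 6723 CPM in Control 2 and 3. Among 10 thalamus and habenula markers 3 rose and 1 fell (median 0.35). Among 12 neocortex markers 2 rose and 1 fell (median 0.22). The part of these marker differences in the changes of the second messenger genes was not tested.

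In the authors' deposited table, 30 of the 79 genes have an adjusted p below 0.05, 13 higher and 17 lower, and 25 of the 30 are among the 26 called here. The DESeq2 alternative, run on the same counts, also called 30, with 13 higher and 17 lower. Its log2 fold change for Adcy1 equals that of the authors (-0.9142), so this overlap is not an independent check. The authors' deposited table lists no adjusted p for 4 of the genes.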

How the data were processed

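Hippocampal RNA of 3 Control and 3 TAF15 OE mice was measured, with groups taken from the sample titles. The deposited count table holds the authors' raw counts per gene. The deposited FPKM values, made by the authors from the same libraries, were used to compare levels between genes. The authors' comparison table gave symbols, positions, log2 fold changes and adjusted p-values, with a test that is not named. TopHat2, HISAT2 2.1.0, Bowtie2 2.2.3 and CASAVA are the tools, and GRCm38 the build, per the submitters' processing notes. The counter, annotation and strandedness are not given in the sources used here.

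Counts were tested in R 4.3.3 with edgeR 4.0.16 (filterByExpr with a minimum count of 10 and a minimum total of 15, TMM scaling, robust quasi-likelihood F-test, group as the only term). Benjamini-Hochberg adjustment covered the 16758 genes tested. CPM uses the scaled library totals, and the biological coefficient of variation was 13.1%. Alternatives were DESeq2 1.42.0, its size factors, total counts alone, no filter, limma-voom (limma 3.58.1), the replicate number as a block and left-out libraries. No libraries were duplicates (smallest chi-square per degree of freedom 5.15). Exon overlaps come from GENCODE M21, which lists all 79 genes, 70 at the same position.

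The genes and the 21 lists were chosen with earlier results of these data known. One member gene is not reported individually here. Otherwise named are every called member, the most abundant and the smallest-p member of each family, Taf15, up to 3 called genes of each pathway list with the smallest p, and leading markers. No list was tested as a set. Of 311 listed symbols, Gucy1a1, Gucy1b1 and Itprip had no row under that name.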

Additional observations from a re-analysis of the deposited data

How the results depend on the processing

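With 1 library left out at a time, the number of genes called ran from 1331 to 2501 (2559 with all libraries), that of second messenger genes called from 14 to 24 (26), those higher from 7 to 10 (12) and those lower from 6 to 15 (14). Fewer libraries were then tested. The labels state no pairing, and whether the replicate numbers pair the libraries was not settled. Correlations of same-numbered deviations from the group means were 0.126, 0.0776 and 0.0871. They are small, but every library correlated best with its own number. With the replicate block 3291 genes and 32 of the 75 were called, adding Adcy9, Dgkg, Dgkh, Itpr1, Plcb2 and Plcb4, and no call was lost. Without the filter 3576 genes and 31 of the 75 were called, with DESeq2 2737 and 30. Adjusted p-values without the filter were far smaller even for well-counted genes, as for Adcy1 (edgeR adjusted p = 4.85e-25 against 0.00548). They are therefore not comparable with those of the main fit. Of all calls 61% were higher, 72% with total counts alone (median of all genes 0.07) and 53% with DESeq2. The log2 fold change of Pde1b turned from -0.0228 to 0.0241 with total counts alone and ran from -0.0840 to 0.0203 with 1 library left out, and the cause was not tested. Without Control 1 and TAF15 OE 1 together, the calls of Adcy2, Itpr3, Pde3b, Pde4a, Pde4b and Prkch, and of the pathway gene Akap5, ended and Dgkg, Dgkh and Plcb2 were added; calls that ended with 1 library left out are given with each gene. With 3 mice a group and an SE near 0.08 on the log2 scale for abundant genes, small changes were not detectable.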

Other observations

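Some targets of the same messengers, chosen after their values were seen, also differed between the groups. Nrgn, which encodes neurogranin, a PKC substrate that binds calmodulin in dendritic spines, had 1836, 1706 and 1751 CPM in Control 1, 2 and 3 and 1358, 1168 and 1022 CPM in TAF15 OE 1, 2 and 3, and fell (log2 fold change -0.58, SE 0.0978, edgeR adjusted p = 0.00370). Of the calmodulin genes, Calm3 (log2 fold change -0.44, edgeR adjusted p = 0.00543) and Calm2 (-0.36, edgeR adjusted p = 0.00981) fell. Among the Ras exchange factors that diacylglycerol recruits, the abundant Rasgrp1 fell from 646, 564 and 613.5 CPM in Control to 470.1, 439.7 and 434 CPM in TAF15 OE (log2 fold change -0.44, edgeR adjusted p = 0.00328). The less abundant Rasgrp3 rose from 16.4, 15.6 and 17.99 to 30.0, 24.0 and 27.3 CPM (log2 fold change 0.70, edgeR adjusted p = 0.00313). The groups did not overlap for these 5 genes, as for 34.6% of all tested genes, and their calls held with each library left out. Since the 5 genes were chosen by their values, these are descriptions and not a test of the messengers' targets.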
